A study of Mus musculus with 15 samples.

Results

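The hair keratins and the keratin-associated proteins of mouse skin are described here in 12 RNA-seq libraries. Members were chosen by their measured level: the genes whose symbol starts with Krtap and 19 named follicle keratins, where FPKM (fragments scaled by gene length and by library size) reached at least 0.5 in at least 3 of the 12 columns. The rule used levels over all columns and no group, and 69 of 76 such genes in the table of 54532 genes met it. Of the 69, 18 are keratins and 51 are keratin-associated proteins. Krt85 was not analysed here, and the other 7 genes missed the level. Just inside the threshold, the third-highest value was 0.804 FPKM for Krtap5-1, 0.945 for Krtap10-10 and 1.10 for Krtap5-4, and just outside it was 0.406 for Krtap27-1, 0.357 for Krtap29-1 and 0.348 for Krtap5-2. Krtap6-3 and Krtap20-2 met the rule through 1 group alone, untreated skin labelled knockout, so their difference from the other groups is built into the choice and supports nothing.

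A hair is made in the bulb of the follicle, where dividing matrix cells leave the cycle and move upward in concentric layers. The inner root sheath moulds the growing hair with its own type I and type II keratins, the companion layer separates that sheath from the outer root sheath, and the cortex and cuticle of the shaft fill with hair keratins. Keratin-associated proteins are small proteins rich in cysteine, or in glycine and tyrosine, that bind and cross-link the keratin filaments of the shaft. Most of these genes are transcribed in growing (anagen) follicles, and skin with resting follicles holds little of their RNA.

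Each of 4 groups had 3 skin libraries: wild type or Trpv3-knockout by label, with no treatment or after 7 days of MC903. That compound, also called calcipotriol, is an analogue of vitamin D and inflames the skin of mice. Trpv3 encodes a heat-sensitive cation channel of keratinocytes, and mice lacking it are known for a wavy coat and curled whiskers. The series text speaks of conditional knockouts, and the labels give no Cre driver, strain, age, sex, body site, hair cycle stage or vehicle. Whether each library is 1 animal is not stated. All p-values therefore refer to variation among these libraries, which may be technical. The depth was 16869716 to 18485698 recovered reads per library, with 1 read on a gene of 1 kb worth 0.0496 to 0.0615 FPKM.

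The targeted gene did not bear out its label in untreated skin. Trpv3 stood at 2.06, 2.71 and 1.13 FPKM in untreated wild type and at 3.17, 3.64 and 2.62 in the libraries labelled knockout, a log2 difference of 0.61 ± 0.22 (SE; limma adjusted p = 0.103). After MC903 it stood at 16.1, 17.0 and 19 in wild type and at 6.82, 6.78 and 4.73 in the libraries labelled knockout, a log2 difference of -1.45 (limma adjusted p = 0.000316). The groups are therefore called labelled knockout throughout, and every direction between genotypes rests on that label. Gene-level RNA does not show whether a deleted exon is missing.

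The level of hair RNA differed between libraries of the same group more than that of other genes did. On the log2(FPKM + 0.5) scale the median SD within a group was 1.57 for the members in untreated wild type skin, against 0.21 for all genes tested. It was 0.51 against 0.11 in untreated labelled knockout, 0.91 against 0.15 in wild type after MC903, and 0.91 against 0.14 in labelled knockout after MC903. Untreated wild type replicate 3 stood apart: 51 of 69 members were at 0 there, 64 were the lowest of their group, and 253 reads fell on all members together. The other untreated wild type libraries held 5544 and 13856 such reads, and the untreated labelled knockout libraries held 24040, 13018 and 12651. The 5 members that were not lowest in replicate 3 were Krtap13, Krtap9-1, Krtap6-3, Krtap4-13 and Krtap20-2, and each of them was at 0 there, tied with at least 1 other library. That library was also the highest of its group for 5 other lists of markers. Summed markers of skeletal muscle were 6249 FPKM there against 3410 and 3193 in replicates 1 and 2, those of adipocytes 1698 against 770 and 1208, and those of fibroblasts 2336 against 1667 and 1285. Dermal papilla markers were 877 FPKM there against 753 and 643, and melanocyte pigment genes 20.8 against 16.8 and 19.7. Other lists were lowest of the group in that library. Interfollicular epidermis markers were 3363 FPKM there against 4733 and 3433, wound keratins 77.1 against 125 and 128, and cell cycle genes 85.4 against 103 and 121. The follicle signal, shaft and sheath, and sebaceous gland lists, given below, were lowest there too. The part of the sampled tissue in the hair values was not tested, and in bulk RNA fewer follicle cells and less RNA per cell cannot be told apart.

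**Figure D1:**
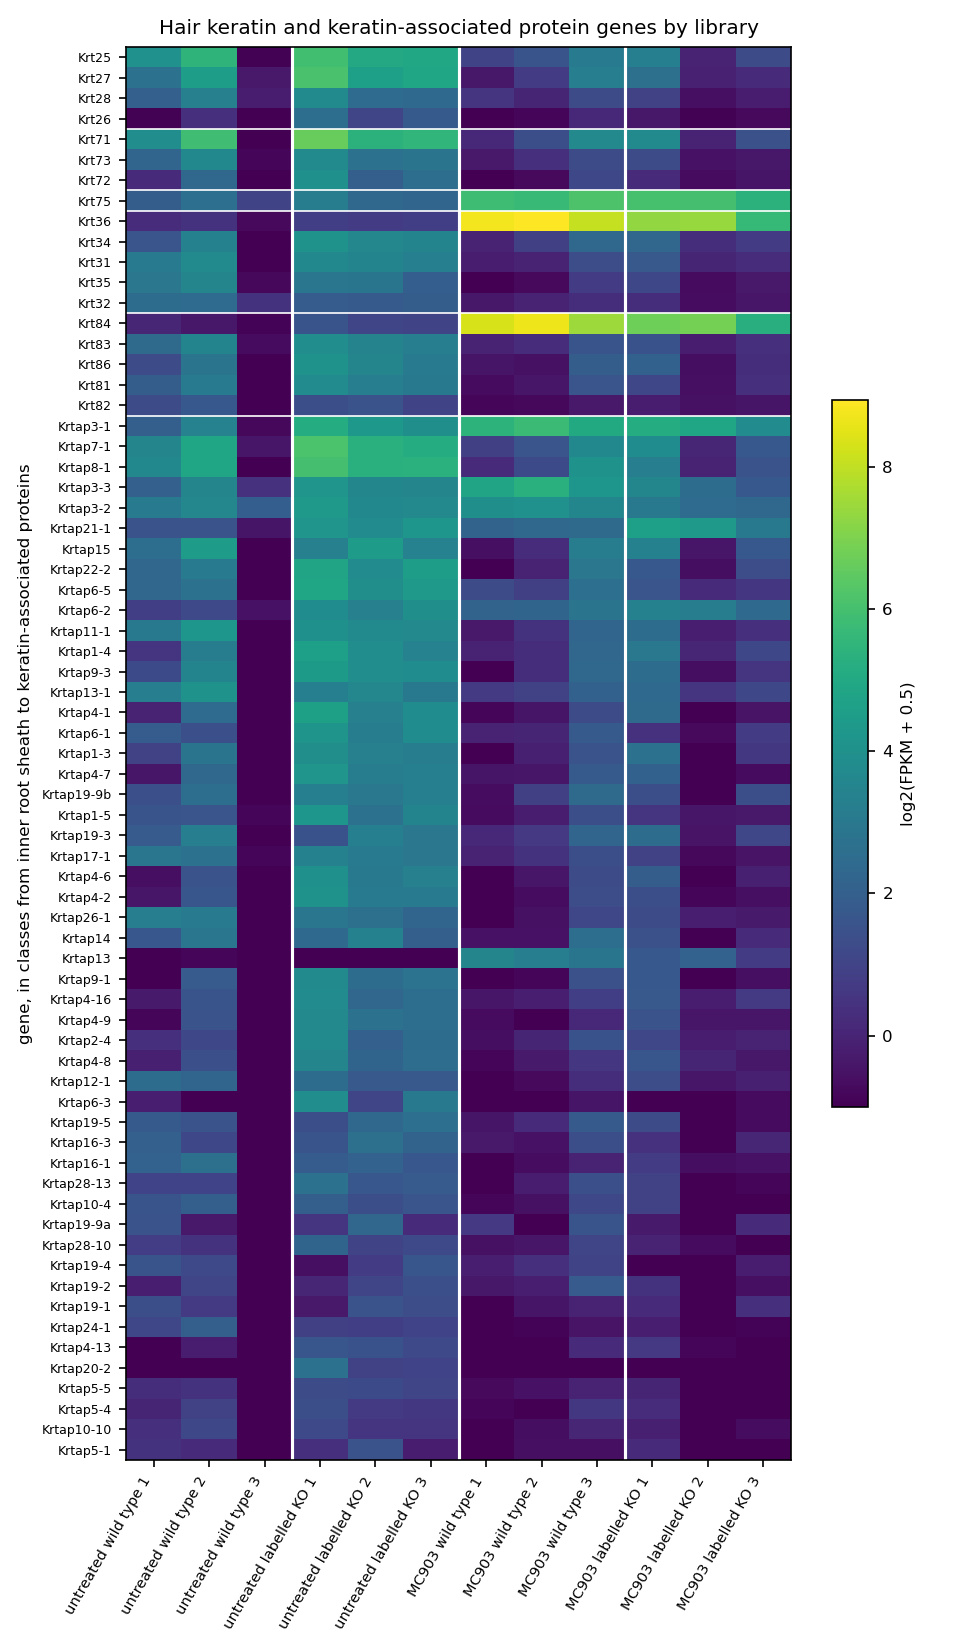
Level of all 69 hair genes (rows, in classes from inner root sheath to keratin-associated proteins) in 12 libraries (columns, 4 groups of 3), coloured by log2(FPKM + 0.5). Untreated wild type replicate 3 is dark in most rows, with 51 of 69 genes at 0, and Krt36, Krt84 and Krt75 are bright in the 6 MC903 libraries.

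MC903 libraries also differed among themselves in a pattern shared by most members. After MC903, wild type replicate 3 had the highest level of its group for 61 of 69 members, and labelled knockout replicate 1 for 60. The median member stood at 0.243, 0.420 and 2.37 FPKM in wild type replicates 1, 2 and 3 after MC903, and at 2.30, 0.152 and 0.539 in labelled knockout. The 8 members that did not peak in wild type replicate 3 were Krt36, Krt84, Krtap3-1, Krtap3-2, Krtap3-3, Krtap13, Krtap5-1 and Krtap20-2. Krt36, Krt84, Krtap13 and the 3 Krtap3 genes are among the members that rose with MC903 in wild type.

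Inner root sheath keratins were abundant in untreated skin, except in wild type replicate 3, and low after MC903. The 7 genes summed to 44.3, 153 and 0.732 FPKM in untreated wild type, to 275, 114 and 124 in untreated labelled knockout, to 3.60, 7.27 and 36.1 in wild type after MC903, and to 31.9, 1.89 and 5.78 in labelled knockout after MC903. Every untreated labelled knockout library lay above every MC903 library, while the wild type groups overlapped. Krt71, the type II partner found in all layers of the sheath, stood at 14.1, 59.1 and 0 FPKM in untreated wild type and at 99.3, 41.7 and 45.8 in untreated labelled knockout. After MC903 it stood at 0.574, 2.14 and 12.5 in wild type and at 12.5, 0.456 and 2.25 in labelled knockout. A count of 0 in wild type replicate 3 allows up to 0.0718 FPKM (3 reads, counting error only). Krt25, its type I counterpart, had a similar spread, with 15.6, 43.5 and 0.0263 FPKM in untreated wild type, 61.0, 31.4 and 29.7 in untreated labelled knockout, 1.53, 2.5 and 8.32 in wild type after MC903 and 9.37, 0.501 and 1.93 in labelled knockout after MC903. Krt26, a keratin of the sheath cuticle, was the least abundant of the 7, with 0.0274, 0.798 and 0 FPKM in untreated wild type and 5.46, 1.61 and 3.03 in untreated labelled knockout.

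Shaft keratins fell into 2 sets with opposite behaviour. The 8 shaft keratins other than Krt36 and Krt84 summed to 34.8, 67.1 and 1.08 FPKM in untreated wild type, to 84.0, 64.7 and 53.1 in untreated labelled knockout, to 1.97, 3.65 and 17.3 in wild type after MC903, and to 17.9, 2.33 and 4.91 in labelled knockout after MC903. As for the sheath keratins, untreated libraries other than wild type replicate 3 lay above every MC903 library. Krt31, a cortex keratin, stood at 7.72, 12.9 and 0 FPKM in untreated wild type, at 11.9, 10.5 and 9.17 in untreated labelled knockout, at 0.340, 0.467 and 2.07 in wild type after MC903 and at 2.93, 0.525 and 0.684 in labelled knockout after MC903. Krt32, a cuticle keratin, was less depleted in wild type replicate 3, with 5.26, 5.10 and 0.881 FPKM in untreated wild type against 3.18, 3.05 and 3.28 in untreated labelled knockout. After MC903 it was below every untreated library, at 0.278, 0.5 and 0.727 in wild type and at 0.737, 0.129 and 0.251 in labelled knockout. Krt81, Krt83 and Krt86 are near-identical cortex keratins, so the split of reads between them is uncertain.

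The 51 keratin-associated proteins summed to 142, 292 and 5.15 FPKM in untreated wild type, 649, 415 and 423 in untreated labelled knockout, 115, 148 and 212 in wild type after MC903, and 213, 78.8 and 65.0 in labelled knockout after MC903. The untreated labelled knockout libraries were the 3 highest of the 12. Krtap8-1, of the glycine- and tyrosine-rich kind, stood at 12, 28.5 and 0 FPKM in untreated wild type, at 63.0, 39.6 and 39.9 in untreated labelled knockout, at 0.625, 1.82 and 16.7 in wild type after MC903 and at 9.03, 0.482 and 2.45 in labelled knockout after MC903. Krtap7-1, of the same kind, stood at 10.9, 29.0 and 0.253, then 68.7, 39.4 and 35.2, then 1.35, 2.57 and 12.1, then 13.8, 0.535 and 2.87 FPKM in the same order. For both genes the 3 untreated labelled knockout libraries were the highest of the 12. Of the 51 genes, 24 lie on chromosome 16 and 19 on chromosome 11, and the 18 keratins lie in 2 clusters on chromosomes 11 and 15. Members of 1 family are close copies of each other, so reads could be split between them. For 8 members another annotated gene overlaps, among them Krtap14 and Krtap15 on opposite strands, and counting was not stated to use the strand.

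**Figure D2:**
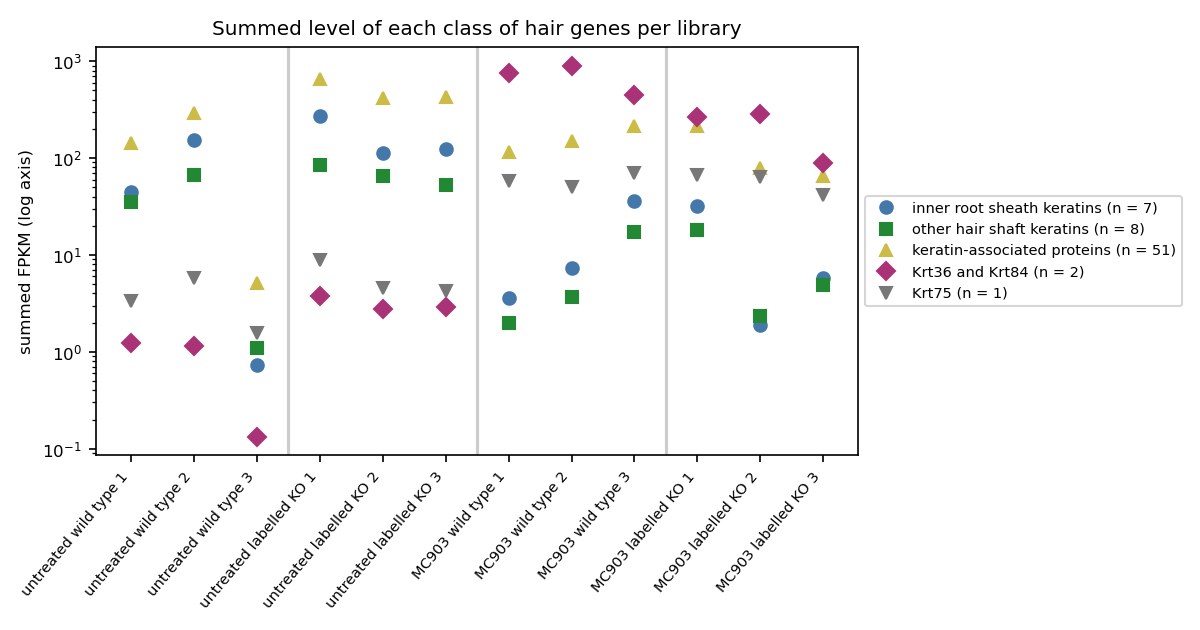
Summed FPKM of each class (log axis) in each library, with the number of genes in the key. Inner root sheath keratins, other shaft keratins and keratin-associated proteins are lowest or near lowest in untreated wild type replicate 3, while Krt36 with Krt84 goes from 0.133 to 3.77 FPKM in the untreated libraries to 88.9 to 901 FPKM after MC903.

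Krt36, Krt84 and Krtap13 rose with MC903 in both genotypes, the last of them by the choice of members. Upstream sequences are shown for these 3 and for 3 abundant in untreated skin (Krt25, Krt31 and Krtap8-1), because the sets moved in opposite directions. Each is the 100 bases before the transcription start in RefSeq on build GRCm38.p6, read 5′ to 3′ on the gene's own minus strand, with TATAAA in capitals.
Krt25 (chr11:99322952-99323051): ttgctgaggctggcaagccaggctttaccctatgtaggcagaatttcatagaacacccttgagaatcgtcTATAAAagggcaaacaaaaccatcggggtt
Krt31 (chr11:100050552-100050651): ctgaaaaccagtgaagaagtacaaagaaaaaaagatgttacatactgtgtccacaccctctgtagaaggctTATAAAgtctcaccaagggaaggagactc
Krtap8-1 (chr16:89487953-89488052): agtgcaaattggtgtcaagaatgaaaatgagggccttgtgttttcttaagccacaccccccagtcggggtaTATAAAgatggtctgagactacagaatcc
Krt36 (chr11:100105627-100105726): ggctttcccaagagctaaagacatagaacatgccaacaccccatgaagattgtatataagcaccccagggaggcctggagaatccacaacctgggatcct
Krt84 (chr15:101532821-101532920): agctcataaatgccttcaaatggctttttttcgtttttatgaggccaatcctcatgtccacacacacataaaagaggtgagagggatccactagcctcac
Krtap13 (chr16:88751629-88751728): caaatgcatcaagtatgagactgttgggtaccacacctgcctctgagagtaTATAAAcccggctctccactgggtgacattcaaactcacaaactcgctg
The first T of TATAAA lies 30 bases before the start in Krt25, 29 in Krt31 and in Krtap8-1, and 49 in Krtap13, and the stretches of Krt36 and Krt84 do not hold those 6 letters. Of 58 members with a RefSeq entry, 35 (60.3%) had TATAAA on the gene's strand, against 2.14% of 32817 mouse promoters. All 6 letters had to lie within the stretch from 45 to 16 bases before the start. Counting either strand over 250 bases before the start, 47 (81%) held TATAAA, against 12.4%. CTTTGA, the core bound by LEF1 and TCF factors, was in 16 (27.6%) against 13.8%, on either strand. The vitamin D receptor element of direct repeats spaced by 3 bases was in 0 of 58 against 0.0396%. With 13 of the 32817 promoters holding it, a count of 0 in 58 says nothing about the members. These matches describe letters in a window, and many members are neighbouring copies of 1 ancestral gene.

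In skin labelled knockout most hair genes were lower after MC903. Of 69 members, 46 fell and 4 rose (limma adjusted p below 0.05), 72.5% in all, while 47.9% of the 17646 genes tested were called, 25 percent higher and 23 percent lower. Without Krtap6-3 and Krtap20-2, 44 of 67 fell. Krtap13, among the 4 that rose, met the member rule through MC903 libraries alone, so its rise is built into the choice. All 7 inner root sheath keratins fell, as did 8 of 10 shaft keratins and 31 of 51 keratin-associated proteins. The median log2 change of the members was -2.40, against -0.00 over all genes tested. In 54 members every MC903 library lay below every untreated one and in 4 above it, against 31 percent and 32 percent of all genes tested. Krtap6-3 and Krtap20-2 are among the 54 and Krtap13 among the 4 by the choice of members, and the median includes them.

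Among the named members of each class, the sheath cuticle keratin Krt26 fell by 2.52 on the log2 scale (SE 0.46; limma adjusted p = 0.000988), from 3.37 ± 1.94 to 0.125 ± 0.132 FPKM (SD, n = 3). Krt28, another inner root sheath keratin, fell by 2.82 (limma adjusted p = 0.0105) and Krt72, of the sheath cuticle, fell by 3.17 (limma adjusted p = 0.00820). Krt32 fell by 2.13 (limma adjusted p = 0.00325), and the keratin-associated proteins Krtap1-5 and Krtap6-1 fell by 3.55 and 3.57 (limma adjusted p = 0.00170 and 0.00209). Those 6 calls stood in every alternative tried. Krt27 fell by 4.27 (limma adjusted p = 0.0144), but the call ended without untreated labelled knockout replicate 1 (adjusted p = 0.0535) or without MC903 labelled knockout replicate 2 (0.0568). The calls of Krt71, Krt25, Krt31, Krt34, Krtap7-1 and Krtap8-1 had adjusted p from 0.0353 to 0.0457 and ended without any 1 of the 3 untreated labelled knockout libraries, or without replicate 2 or 3 after MC903. Leaving out 1 library moved the count of called members from 50 to between 22 and 60. It was 22 without MC903 labelled knockout replicate 2 (38.4% of all genes tested called) and 60 without untreated wild type replicate 3 (52.7%). It was 26 and 33 without untreated labelled knockout replicates 1 and 2 (39.8% and 41.1%), and 28 without replicate 3 after MC903 (43.4%). A pseudocount of 0.1 gave 29 (47.3%) and no filter on low values gave 31 (24.5%).

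In wild type skin the same comparison depended on 1 library. With all libraries 9 members rose and 2 fell (limma adjusted p below 0.05), 15.9% of 69. Among the 9 is Krtap13, whose rise is built into the choice of members. Of all genes tested 63 percent were called, 32.6% higher and 30.3% lower. The median log2 change was -0.43 for the members and 0.02 over all genes. Every MC903 library lay above every untreated one for 8 members and below it for 1, against 33 percent and 31.1% of all genes tested. Krtap13 is among the 8, again by the choice of members. The 2 that fell were Krt32, by 1.85 (limma adjusted p = 0.00494), which stood in every alternative, and Krtap24-1, by 1.5 (limma adjusted p = 0.0418), which fell short in 14 of 24, among them the fit without untreated wild type replicate 1 and the fit without replicate 2.

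Without untreated wild type replicate 3, 7 of 69 members rose and 21 fell in wild type skin. Over all genes tested 63.6% were called, 32.7% higher and 31 percent lower. The share of members that fell was thus near that of all genes, and the share that rose was below it. Among the 21 were Krt31, down by 3.04 on the log2 scale (limma adjusted p = 0.000782), Krt35, an early shaft keratin named after its values were seen, down by 3.56 (limma adjusted p = 0.000475), and Krt71, down by 3.15 (limma adjusted p = 0.0378). In that fit 4 of 7 inner root sheath keratins, 6 of 10 shaft keratins and 11 of 51 keratin-associated proteins fell, and the median log2 change was -1.22. Calls shared with the fit of all libraries numbered 9 of 11, and the rises of Krtap21-1 and Krtap3-2 were the ones not called. The wild type arm then had 2 untreated libraries, and their spread was estimated with the other groups.

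Krt36 and Krt84 rose with MC903 in both genotypes and became the most abundant members. Both are hair-type keratins known outside the follicle from the filiform papillae of the tongue. Krt36 went from 0.692, 0.860 and 0.0939 FPKM in untreated wild type to 428, 489 and 266 after MC903, and from 1.29, 1.19 and 1.32 to 159, 169 and 50.5 in labelled knockout. Krt84 went from 0.552, 0.282 and 0.0396 to 320, 412 and 179 in wild type, and from 2.48, 1.59 and 1.57 to 106, 117 and 38.4 in labelled knockout. Groups did not overlap within either genotype. The log2 change of Krt36 was 8.60 ± 0.44 in wild type and 5.98 ± 0.44 in labelled knockout (SE; limma adjusted p = 6.39e-08 and 2.48e-06). For Krt84 it was 8.56 ± 0.43 and 5.07 ± 0.43 (SE; limma adjusted p = 5.30e-08 and 6.18e-06). These folds are on the log2(FPKM + 0.5) scale, which understates changes from such low levels. In MC903 libraries the pair made up 43.2 to 81.1% of the summed FPKM of all 69 members, against 0.220 to 1.54% in untreated libraries.

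The rise of both genes was smaller in labelled knockout. The difference of the MC903 response was -3.49 ± 0.60 for Krt84 (SE; limma adjusted p = 0.00124) and -2.62 ± 0.62 for Krt36 (SE; limma adjusted p = 0.00705), and voom on the recovered reads ended the latter (adjusted p = 0.0764). After MC903 all 3 labelled knockout libraries lay below all wild type ones for both, with a log2 difference of -1.78 for Krt36 (limma adjusted p = 0.00584) and of -1.87 for Krt84 (limma adjusted p = 0.00373). Markers of other keratinocytes differed in how they moved beside this pair. Summed wound keratins (6 of 6 listed, none at 0) went from 77.1 to 128 FPKM in untreated wild type to 11401 to 14767 after MC903, and from 150 to 231 to between 3123 and 4556 in labelled knockout. Interfollicular epidermis markers (14 of 14, none at 0) went from 3363 to 4733 to between 16447 and 25973 in wild type, and from 6696 to 7748 to between 5304 and 7679 in labelled knockout. Of the 6 wound keratins, 6 rose in wild type, and 5 rose and 1 fell in labelled knockout. Of the 14 epidermis markers, 9 rose and 0 fell in wild type, and 5 rose and 6 fell in labelled knockout (limma adjusted p below 0.05). Over all genes tested, 32.6% rose and 30.3% fell in wild type, and 25 percent rose and 23 percent fell in labelled knockout. The part of either cell population in the rise of Krt36 and Krt84 was not tested.

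Krt75 and Krtap13 were the other members that rose in both genotypes. Krt75, the keratin of the companion layer, went from 3.34, 5.74 and 1.55 FPKM in untreated wild type to 57.9, 50.7 and 70.7 after MC903, and from 8.87, 4.57 and 4.29 to 66.3, 63.3 and 41.1 in labelled knockout. The MC903 libraries of the 2 genotypes overlapped. The log2 change was 4.03 ± 0.37 in wild type and 3.20 ± 0.37 in labelled knockout (SE; limma adjusted p = 3.88e-06 and 5.77e-05), and their difference of -0.83 ± 0.53 did not pass (limma adjusted p = 0.237). Krtap13, on chromosome 16, had 0, 0.0556 and 0 FPKM in untreated wild type and 0 in all 3 untreated labelled knockout libraries. After MC903 it stood at 11, 9.10 and 6.81 in wild type and at 2.84, 3.91 and 1.21 in labelled knockout. Taken at a floor of 3 reads per library (0.176 FPKM), its mean after MC903 in labelled knockout was at least 15.1-fold higher. Krtap13 reached the level of the member rule in MC903 libraries alone, so its rise is built into the choice, and its log2 change depends on the pseudocount. Its calls of a rise in both genotypes (limma adjusted p = 4.30e-07 and 4.41e-05) therefore support nothing. After MC903 Krtap13 was called lower in labelled knockout than in wild type (log2 difference -1.67, limma adjusted p = 0.000634).

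**Figure D3:**
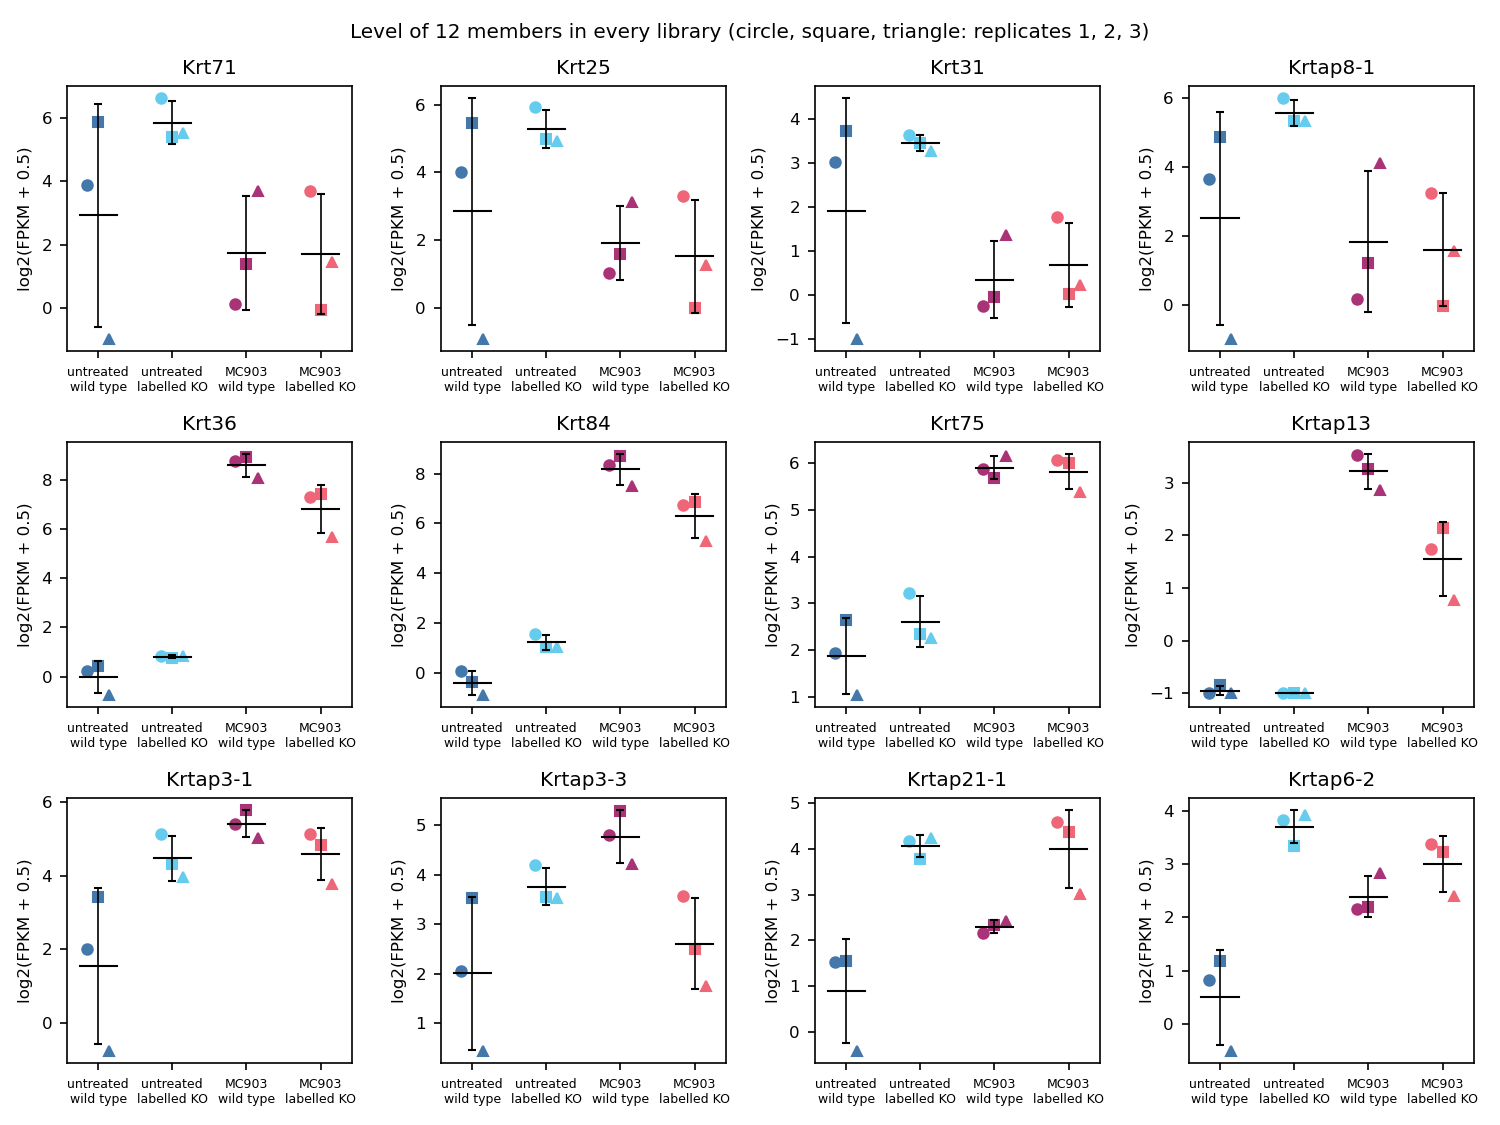
FPKM of 12 members in every library on the log2(FPKM + 0.5) scale, with a separate range for each panel. Circles, squares and triangles are replicates 1, 2 and 3, horizontal lines are group means and bars are 1 SD (n = 3). The top row shows members low in untreated wild type replicate 3 (triangle), and the middle row the 4 members that rose with MC903 in both genotypes.

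Krtap3-1, Krtap3-2, Krtap3-3, Krtap6-2 and Krtap21-1 were called higher with MC903 in wild type and not in labelled knockout. The first 3 are neighbouring high-sulphur genes on chromosome 11. Krtap3-1 stood at 3.49, 10.2 and 0.0866 FPKM in untreated wild type, at 34.9, 19.3 and 15 in untreated labelled knockout, at 42.3, 54.5 and 32.3 in wild type after MC903 and at 34.6, 28.1 and 13.2 in labelled knockout after MC903. Krtap3-3 stood at 3.69, 11 and 0.853, then 17.7, 11.3 and 11, then 27.4, 38.6 and 18.1, then 11.4, 5.19 and 2.86 FPKM in the same order. For both, every wild type MC903 library was above every untreated wild type one. The log2 rise in wild type was 3.86 for Krtap3-1 (limma adjusted p = 0.00164) and 2.76 for Krtap3-3 (limma adjusted p = 0.00372), and 2.70 and 1.97 without untreated wild type replicate 3 (limma adjusted p = 0.000887 and 0.00943). Krtap3-2 rose by 0.97 in wild type (limma adjusted p = 0.0363), which did not hold without that library (adjusted p = 0.129), and it fell by 1.28 in labelled knockout (limma adjusted p = 0.0137), which did not hold without untreated labelled knockout replicate 1 (adjusted p = 0.0591). In labelled knockout the changes of Krtap3-1 (0.12) and Krtap3-3 (-1.15) did not pass (limma adjusted p = 0.920 and 0.181). The response differed between genotypes for all 3: by -3.75 for Krtap3-1 (limma adjusted p = 0.0248), -3.91 for Krtap3-3 (0.00764) and -2.25 for Krtap3-2 (0.00579). By limma the difference for Krtap3-1 ended without untreated labelled knockout replicate 1, MC903 wild type replicate 2 or MC903 labelled knockout replicate 3 (adjusted p = 0.0602, 0.0511 and 0.0605).

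Krtap21-1 and Krtap6-2, glycine- and tyrosine-rich neighbours on chromosome 16, differed by genotype in untreated skin. Krtap21-1 stood at 2.39, 2.44 and 0.241 FPKM in untreated wild type and at 17.7, 13.3 and 18.4 in untreated labelled knockout. After MC903 it stood at 3.95, 4.53 and 4.85 in wild type and at 23.8, 20.3 and 7.64 in labelled knockout. Labelled knockout libraries lay above wild type ones in both conditions. The log2 difference was 3.18 ± 0.51 untreated (SE; limma adjusted p = 0.00460) and 1.70 ± 0.51 after MC903 (SE; limma adjusted p = 0.0158). The first stood in every alternative and was 2.53 without untreated wild type replicate 3, and the limma call of the second ended without MC903 labelled knockout replicate 1 or 2 (adjusted p = 0.0629 and 0.0561). Krtap6-2 stood at 1.28, 1.77 and 0.200 FPKM in untreated wild type, at 13.7, 9.67 and 14.8 in untreated labelled knockout, at 3.96, 4.07 and 6.59 in wild type after MC903 and at 9.89, 8.87 and 4.81 in labelled knockout after MC903. Its log2 difference between genotypes was 3.20 ± 0.40 in untreated skin (SE; limma adjusted p = 0.00168) and 0.61 ± 0.40 after MC903, where it did not pass (SE; limma adjusted p = 0.225). In wild type Krtap6-2 rose by 1.89 with MC903 (limma adjusted p = 0.00167), and Krtap21-1 rose by 1.42 (limma adjusted p = 0.0300), which did not hold without untreated wild type replicate 3 (adjusted p = 0.0980) or any 1 of the 3 wild type MC903 libraries. Its response did not pass the test of a difference between genotypes (-1.48, limma adjusted p = 0.123), while that of Krtap6-2 did, as given below.

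Between the untreated groups, the called members were higher in labelled knockout. Of 69 members, 18 were called higher and 0 lower (limma adjusted p below 0.05), 26.1% of them, while 11.7% of all genes tested were called, 7.15% higher and 4.55% lower. Without Krtap6-3 and Krtap20-2, 16 of 67 were called. At an unadjusted p below 0.05 there were 35, all higher. The median log2 difference was 1.75 for members and 0.01 for all genes. In 36 members every labelled knockout library was above every wild type one, a pattern found in 16.9% of all genes tested. The 36, the 35 and the median include Krtap6-3 and Krtap20-2, whose difference the choice of members fixes. Of the 18, 16 were keratin-associated proteins and the others were Krt26 and Krt84. Krt26 was higher by 2.34 (limma adjusted p = 0.0103) and by 2.10 without untreated wild type replicate 3 (limma adjusted p = 0.0179). Krt84 was higher by 1.62 (limma adjusted p = 0.0339), and that call ended without untreated wild type replicate 2 or 3 or any 1 of the untreated labelled knockout libraries (adjusted p from 0.0632 to 0.114).

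The genotype count in untreated skin moved with the libraries used. Without untreated wild type replicate 3 it was 14, all higher, with 20.2% of all genes tested called, 12 percent higher and 8.2% lower, and the median difference of the members was 0.84, with 13 of 69 below 0. Without Krtap6-3 and Krtap20-2 as well, 12 of 67 were called. Without untreated wild type replicate 1 it was 10, with 8.82% of all genes tested called. It was 5 without untreated labelled knockout replicate 1, 5 without replicate 2 and 7 without replicate 3. In those fits 4.71%, 4.26% and 6.66% of all genes tested were called. Fitting the 2 untreated groups alone gave 5 (3.47% of all genes), while library weights gave 34 (37.1%). Markers of other cells differed between the same groups: adipocyte markers were lower in labelled knockout in 10 of 12 (summed 679 to 758 FPKM against 770 to 1698), wound keratins higher in 5 of 6 (150 to 231 against 77.1 to 128) and fibroblast genes higher in 7 of 10 (4996 to 5729 against 1285 to 2336). None of these lists had a gene at 0, and their part in the hair gene differences was not tested. Over all genes tested, with all libraries, 7.15% were higher in untreated labelled knockout and 4.55% lower.

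Calls between the untreated groups were counted by family of keratin-associated proteins, with no test between families. Over all genes tested, 7.15% were called higher, and 12 percent without untreated wild type replicate 3. Of the 8 Krtap4 genes, cysteine-rich proteins of the cortex, 7 were called higher in untreated labelled knockout, and 5 without untreated wild type replicate 3. Krtap6-1, Krtap6-2 and Krtap6-5 were called in both fits, as was Krtap6-3, whose difference the choice of members fixes. By limma, 0 of the 7 Krtap19 genes were called in either fit. The Krtap4 genes summed to 1.95, 22.0 and 0 FPKM in untreated wild type and to 113, 50.9 and 58.5 in untreated labelled knockout. The Krtap19 genes, of the glycine- and tyrosine-rich kind, summed to 15.7, 21.9 and 0 in untreated wild type and to 15.7, 30.7 and 29.7 in untreated labelled knockout, and these overlapped. Krt35 also overlapped, at 7.13, 10.9 and 0.0873 FPKM in untreated wild type and at 7.03, 6.85 and 3.45 in untreated labelled knockout.

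After MC903 few members differed between genotypes. Of 69, 1 was higher in labelled knockout (Krtap21-1) and 5 were lower (Krt36, Krt84, Krtap3-2, Krtap3-3 and Krtap13; limma adjusted p below 0.05), 8.7% in all, while 52.1% of all genes tested were called. The median log2 difference was -0.07, against -0.03 over all genes. Groups did not overlap for 1 member that was higher and 6 that were lower, against 31 percent and 31.7% of all genes tested. Krtap3-3 was lower by a log2 difference of -2.16 (limma adjusted p = 0.0185), which did not hold without MC903 wild type replicate 2 (adjusted p = 0.0626) or MC903 labelled knockout replicate 3 (0.0757). Krtap3-2 was lower by a log2 difference of -1.23 (limma adjusted p = 0.0150), which ended without MC903 labelled knockout replicate 3 (adjusted p = 0.0553). The median SE of a member's difference was 0.79 on the log2 scale, against 0.15 over all genes tested.

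The MC903 response differed between genotypes in the same direction for all called members. Of 69, 17 had a lower response in labelled knockout and 0 a higher one (limma adjusted p below 0.05), 24.6% in all, while 39.7% of all genes tested were called, 20 percent higher and 19.7% lower. At an unadjusted p below 0.05 there were 22, all lower. The 17 were Krt26, Krt36 and Krt84 with 14 keratin-associated proteins, among them the 3 Krtap3 genes. Krtap6-3 and Krtap20-2, fixed by the choice of members, are in this count, and without them 15 of 67 were called. The median difference of the members was -2.03, against -0.01 over all genes, and -1.23 without untreated wild type replicate 3. In that fit 13 members were called, all of them among the 17, with 45.4% of all genes tested called. Krtap6-2 differed by -2.59 ± 0.57 (SE; limma adjusted p = 0.00471), which stood in every alternative. The count was 9 without untreated labelled knockout replicate 1. It was 10 without MC903 wild type replicate 3 or MC903 labelled knockout replicate 2 or 3. Without untreated wild type replicate 2 it was 27, with 36.7% of all genes tested called. It was 10 with a pseudocount of 0.1 (39.1% of all genes), 9 without a filter (18.9%) and 11 when scaled to TPM (42.5%). Voom gave 9 (39.5%), which shared 8 of the 17. The difference of Krtap1-5 (-2.92, limma adjusted p = 0.0364) ended in 11 of 24 alternatives, among them without untreated labelled knockout replicate 1 or 3, MC903 wild type replicate 3, or MC903 labelled knockout replicate 2 or 3 (adjusted p from 0.0625 to 0.0863).

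**Figure D4:**
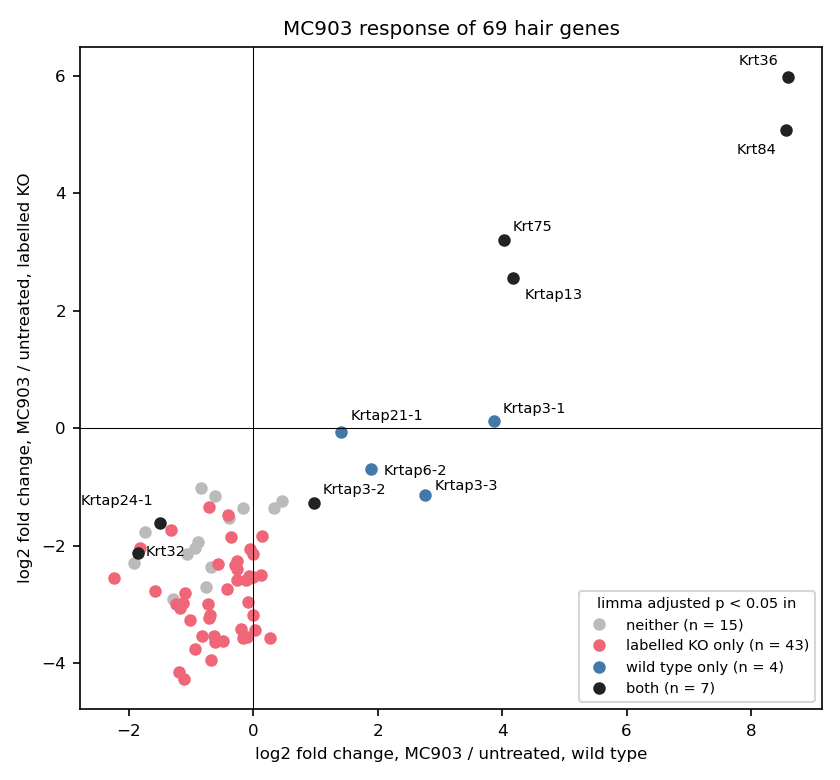
Log2 change with MC903 of each of the 69 members in labelled knockout (vertical axis) against wild type (horizontal axis), coloured by whether limma called it in both genotypes (7), wild type alone (4), labelled knockout alone (43) or neither (15). Krt36, Krt84, Krt75 and Krtap13 lie at the upper right, and most other members lie below 0 on the vertical axis.

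Other genes of the follicle were read from lists. Among non-keratin proteins of the shaft and inner root sheath, 33 of 34 were tested: 19 rose and 4 fell with MC903 in wild type, and 15 rose and 12 fell in labelled knockout. Over all genes tested, 32.6% rose and 30.3% fell in wild type, and 25 percent rose and 23 percent fell in labelled knockout. The median log2 change of the list was 1.01 in wild type and -0.03 in labelled knockout. The genes named next all rose, so they do not stand for the 12 that fell in labelled knockout. The list also holds genes of cornified cells, so its rise is not read as a follicle signal. Repetin (Rptn), a filament-associated protein of cornified cells, rose by 8.46 in wild type and 6.29 in labelled knockout (limma adjusted p = 6.95e-10 and 1.24e-08). Padi4, which converts arginine to citrulline, and Tgm3, a cross-linking transglutaminase, rose by 2.48 and 3.0 in labelled knockout (limma adjusted p = 1.33e-05 and 9.99e-06). In untreated labelled knockout 12 of the 33 were higher and 2 lower than in wild type, against 7.15% and 4.55% of all genes tested. In untreated wild type the list summed to 438, 411 and 330 FPKM, lowest in replicate 3.

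Counts for hair follicle transcription factors and signals were near those of all genes tested in wild type, with 13 of 35 tested higher and 14 lower after MC903 in wild type, and 6 higher and 13 lower in labelled knockout. They summed to 247, 239 and 235 FPKM in untreated wild type. Hr and Hoxc13, named next, rose in wild type, so they do not stand for the 14 lower there or the 13 lower in labelled knockout. The hairless gene Hr, a corepressor needed for the hair cycle, rose by 2.52 in wild type (limma adjusted p = 1.95e-07), and its response in labelled knockout differed from that by -1.57 (limma adjusted p = 0.000377). Hoxc13, a direct activator of hair keratin genes chosen here after its values were seen, rose by 2.5 in wild type and 2.16 in labelled knockout (limma adjusted p = 0.000294 and 0.00139). It stood at 2.25, 3.61 and 0.616 FPKM in untreated wild type, at 3.45, 2.09 and 1.90 in untreated labelled knockout, at 12.1, 11 and 15.1 in wild type after MC903 and at 15, 15.8 and 8.19 in labelled knockout after MC903.

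Markers of other follicle parts varied less between the untreated wild type libraries than the hair genes did. Bulge and stem cell markers (13 of 13, none at 0) summed to 810, 556 and 706 FPKM in untreated wild type, and dermal papilla markers (15 of 16 tested, none at 0) to 753, 643 and 877. Untreated wild type replicate 3 was not the lowest for either, but was the lowest for sebaceous gland markers, at 3102 FPKM against 3932 and 3210. After MC903 dermal papilla markers summed to 79.3 to 86.1 in wild type and 310 to 345 in labelled knockout. Of 15 tested, 9 were lower and 1 higher in wild type, and 6 were lower and 3 higher in labelled knockout. Their median log2 change was -0.96 in wild type and 0.003 in labelled knockout. Over all genes tested, 30.3% were lower and 32.6% higher in wild type, and 23 percent lower and 25 percent higher in labelled knockout. Corin, a protease of dermal papilla cells, fell by 3.96 in wild type and by 1.05 in labelled knockout (limma adjusted p = 1.71e-09 and 3.77e-05). Krt15, a keratin of the bulge, fell by 3.03 in labelled knockout (limma adjusted p = 1.31e-06). Sebaceous gland markers (13 of 14 tested) summed to 3102 to 3932 and 2674 to 2985 FPKM in untreated wild type and labelled knockout, and to 582 to 749 and 1105 to 1456 after MC903. Melanocyte pigment genes summed to 16.8 to 20.8 FPKM in untreated wild type, 29.2 to 37.9 in untreated labelled knockout, 14.8 to 20.5 in wild type after MC903 and 37.4 to 41.7 in labelled knockout after MC903, and 8 of 8 tested were higher in labelled knockout after MC903. The part of these cell populations in the hair values was not tested. Over all genes tested, 25.9% were higher in labelled knockout after MC903.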

How the data were processed

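RNA was sequenced from 12 skin libraries in 4 groups of 3, grouped by the genotype and treatment of the labels. Samples of dorsal root ganglia were not analysed here. Gene-level FPKM values were deposited by the authors. Reads were counted with featureCounts on build mm10, per the submitters' processing notes, and neither aligner nor strand setting is given in the sources used here. Every value of the deposited table worth under 1000 reads equalled a whole number of reads within 0.01, which gave the depth, and larger values were not checked.

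FPKM values were tested as log2(FPKM + 0.5) with limma 3.58.1 in R 4.3.3, with empirical Bayes moderation and a mean trend. The fit held all 4 groups (8 residual degrees of freedom) and 17646 genes with at least 0.5 FPKM in at least 3 libraries. Benjamini-Hochberg adjustment ran over all of them, two-sided, with a threshold of 0.05. The fit was tested on simulated data that gave every gene the same small extra variation and held no outlying library. That test therefore does not cover the wide spread of the members. Fold changes on this scale understate those of low genes. Alternatives were 13 other settings and leaving out each of 12 libraries.

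Named members were the 3 most abundant of each class, up to 5 called per direction and comparison by adjusted p, and 3 on each side of the level threshold. Other lists (13) gave up to 4 genes per comparison. Any other gene is named as chosen after its values were seen or for a count. Members and lists were chosen with earlier results of these data known. Promoter sequences came from RefSeq, with 58 of 69 members matched by symbol. Keratin-associated proteins were grouped by family, not by amino acid composition. The deposited table was read with Python 3.11.15 and pandas 2.3.3.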

Additional observations from a re-analysis of the deposited data

Results flagged for a closer look

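In 12 of the 17 members called, those named by the rule, the response to MC903 differed between the genotype labels by the test of the difference itself, labelled knockout minus wild type, on the log2 scale. The keratins were Krt84 (-3.49), Krt36 (-2.62) and Krt26 (-2.46). The Krtap3 family gave -3.91 for Krtap3-3, -3.75 for Krtap3-1 and -2.25 for Krtap3-2. The Krtap6 genes gave -3.47 for Krtap6-3, -3.41 for Krtap6-1 and -2.59 for Krtap6-2. Others were Krtap1-5 (-2.92), Krtap20-2 (-2.53) and Krtap13 (-1.62). Krtap6-3 and Krtap20-2 reached the level of the member rule in 1 group alone, so their values are fixed by that choice. The other 5 called were Krtap6-5, Krtap4-2, Krtap2-4, Krtap4-13 and Krtap5-5. By voom on recovered reads the differences of Krt36, Krt26, Krtap13, Krtap6-3 and Krtap1-5 did not pass (adjusted p = 0.0764, 0.0941, 0.441, 0.0726 and 0.116). Krtap1-5 ended in 11 of 24 alternatives and Krtap6-1 in 5, the latter among them without untreated labelled knockout replicate 1, MC903 wild type replicate 3 or MC903 labelled knockout replicate 2 (adjusted p from 0.0501 to 0.0535).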

How the results depend on the processing

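The number of called members depended on settings and libraries. Of 62 named calls, 31 stood in every alternative and 31 ended in at least 1. Among the 31 that stood are all calls of Krtap20-2 and the fall of Krtap6-3 with MC903 in labelled knockout. The rises of Krtap13 with MC903 in each genotype are among them too. Those calls are built into the choice of members, so their standing supports nothing. The other calls of Krtap6-3, built in likewise, are among the 31 that ended. Of the 1530 values of the named calls 0 reversed, but the named calls had passed in the main fit, which left little room for a reversal. Over all 69 members directions did move. Without untreated wild type replicate 3, members below 0 went from 1 to 13 for genotype in untreated skin and from 69 to 57 for the response difference. For MC903 in wild type, library weights gave 29 calls (20 lower) against 11, with 69.7% of all genes tested called against 63 percent. For MC903 in labelled knockout, a pseudocount of 0.1 gave 29 and no filter 31, against 50. Of all genes tested, those fits called 47.3% and 24.5%, against 47.9%. For genotype in untreated skin, a pseudocount of 0.1 gave 9, no filter 7, library weights 34 and only the groups compared 5, against 18. Those fits called 11.2%, 4.17%, 37.1% and 3.47% of all genes, against 11.7%. For the difference of the response, a pseudocount of 0.1 gave 10, no filter 9, TPM 11, TPM without hair genes in the sum 11 and voom 9, against 17. There the shares of all genes were 39.1%, 18.9%, 42.5%, 42.2% and 39.5%, against 39.7%. Leaving out 1 library gave 8 to 28, 22 to 60, 5 to 24, 4 to 6 (genotype after MC903) and 9 to 27 in the order MC903 in wild type, MC903 in labelled knockout, genotype untreated, genotype after MC903 and response difference. Scaling to TPM moved the median log2 change of all genes to -0.40 for MC903 in wild type, -0.18 in labelled knockout, 0.24 for genotype after MC903 and 0.25 for the response difference. It moved the summed keratin-associated proteins of wild type MC903 replicate 3, as log2 of the sum over its mean in 12 libraries, from -0.11 to -0.59. The causes were not tested. A replicate block gave 11, 40, 17, 6 and 13 calls in that order, against 11, 50, 18, 6 and 17. Deviations of same-numbered libraries from their group means were weakly correlated (3 of 18 pairs above 0.1, range -0.13 to 0.17). Such values cannot exclude a pairing of small effect, and the labels do not say whether the numbers pair the libraries. At these depths 3 reads, the limit for a count of 0, equal 0.0718 FPKM for Krt71 and 0.273 FPKM for Krtap8-1 in untreated wild type replicate 3.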

Other observations

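Lists of other skin cells also moved with treatment and label. Over all genes tested, 32.6% rose and 30.3% fell with MC903 in wild type, and 25 percent rose and 23 percent fell in labelled knockout. Labelled knockout was higher in 7.15% of all genes untreated and in 25.9% after MC903, and the response was lower in 19.7%. Interfollicular epidermis markers rose in 9 of 14 genes with MC903 in wild type and 0 fell, and 5 rose and 6 fell in labelled knockout (limma adjusted p below 0.05). Cell cycle genes rose in 20 of 20 in both genotypes, and the response was lower in labelled knockout for 11. All 6 wound keratins had a lower response in labelled knockout. Fibroblast and matrix genes were higher in labelled knockout in 7 of 10 untreated and 10 of 10 after MC903. Of 9 immune cell markers tested, 3 rose and 4 fell in wild type, 7 rose and 1 fell in labelled knockout, and 9 were higher in labelled knockout after MC903. Skeletal muscle markers fell in 5 of 13 in wild type and 12 of 13 in labelled knockout. Adipocyte markers fell in 11 of 12 and 10 of 12. Bulge markers fell in 9 of 13 and 11 of 13, and rose in 2 and 1. Sebaceous markers fell in 9 of 13 in wild type and 10 of 13 in labelled knockout. The part of these cells in the hair gene values was not tested.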
